A study of Rattus norvegicus with 4 samples.

Results

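The genes described here encode parts of the hemidesmosome and of the basement membrane beneath it. They were chosen by name, and 8 of the 9 symbols listed were matched to a feature among the 30017 symbols of the count matrices: Col17a1, Itga6, Itgb4, Lamb3, Col7a1, Lama5, Col4a1 and Col4a2. Lama3, the ninth, was not analysed here. Counts came from single-cell RNA sequencing of dissociated esophagus from male Sprague-Dawley rats aged 6 weeks. Each of 4 groups was 1 library made from the pooled esophagi of 5 animals. Controls received 5 sham fractions of 0 Gy and were taken at day 7. The single-dose pool was given 1 X-ray dose of 35 Gy over the esophagus and taken at day 7. Both fractionated pools had 5 daily doses of 7 Gy, with tissue taken at day 7 from one and at day 14 from the other. Because a group was 1 pool, no difference below has a replicate check or a test. The ranges in parentheses are 95% intervals, which cover counting error only. Values for the 4 libraries are always given in 1 order: the control, the single dose, then the fractions at day 7 and at day 14.

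Hemidesmosomes rivet the basal cells of a stratified epithelium such as that of the esophagus to the matrix below. Their core is the integrin pair of Itga6 and Itgb4 together with the transmembrane collagen Col17a1. This pair binds laminin-332, to which Lama3 and Lamb3 contribute chains, and type VII collagen from Col7a1 forms the anchoring fibrils that tie that laminin to the connective tissue. Col4a1 and Col4a2 supply the chains of the common type IV collagen network, and Lama5 the long chain of laminins found under epithelia and in vessel walls. Basement membranes also wrap capillaries, mural cells and the glia of nerves, where several of these genes are known to be active.

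RefSeq start sites on the rat build GRCr8 were found for 6 of the 8 genes measured. Col4a1 and Col4a2 lie head to head on chromosome 16, on opposite strands, so that 76 bases separate their starts. That stretch is shown because the levels of both genes parted most in 1 library. The 250 bases before the starts of Col17a1 and Lamb3 are shown because the levels of these epithelial genes had a like pattern across cell types. Sequences are in lower case, 5′ to 3′, on the strand of Col4a1 for the shared stretch and on the gene's own strand for the others. Capitals mark every match, on either strand, to CCAAT, the GC box GGGCGG, the AP-1 motif TGANTCA, the CRE motif TGACGTCA or TATAAA.
Col4a1 and Col4a2, between starts, chr16:84885521-84885596: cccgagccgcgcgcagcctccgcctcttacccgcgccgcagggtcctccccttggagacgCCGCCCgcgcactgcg
Col17a1, chr1:256518858-256519107, minus strand: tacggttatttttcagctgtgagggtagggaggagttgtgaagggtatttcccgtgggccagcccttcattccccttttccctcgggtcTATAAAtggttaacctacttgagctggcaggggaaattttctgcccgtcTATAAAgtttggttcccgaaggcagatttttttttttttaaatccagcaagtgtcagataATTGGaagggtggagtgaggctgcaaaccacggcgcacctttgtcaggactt
Lamb3, chr13:107362303-107362552, plus strand: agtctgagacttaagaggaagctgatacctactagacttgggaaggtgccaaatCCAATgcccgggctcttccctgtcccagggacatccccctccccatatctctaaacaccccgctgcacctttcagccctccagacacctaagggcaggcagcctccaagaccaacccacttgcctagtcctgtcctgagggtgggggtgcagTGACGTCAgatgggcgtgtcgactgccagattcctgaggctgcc
The stretch between the type IV collagen genes held 1 GC box, on the strand of Col4a2, and no match to the other 4 motifs. A GC box lay in the last 76 bases of 18.1% of the 33469 rat promoters in the table. Before Col17a1 stood 2 TATAAA matches, the nearer ending 107 bases before the start, and 1 CCAAT on the opposite strand. Upstream of Lamb3 were 1 CCAAT and 1 CRE motif, the latter 37 to 44 bases before the start. Over the 250 bases, 12.9% of promoters held TATAAA, 34% CCAAT and 1.59% the CRE motif. These are matches of letters, not sites shown to be bound.

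The libraries held 10468 to 12505 barcodes and 59805782 to 109618791 unique molecular identifiers (UMIs), the tags that count captured transcripts, and 8873 to 11369 cells were kept in each. Cells were classed by marker genes, and a class name stands for cells like that type. Basal cells had at least 4 times as many UMIs of Krt5, Krt14, Krt15 and Tp63 as of 11 suprabasal markers, with 1 added to each. Basal epithelial cells numbered 1027, 1555, 2685 and 248 and carried a median of 12546, 15350.0, 5103 and 13947 UMIs, so those of the fractionated day 7 library were the shallowest. Fractionated day 7 held 74 fibroblasts and 40 glia, too few for a comparison, which needed 100 cells in both libraries. Levels are UMIs of a gene per 1000000 UMIs of its class (CPM). Macrophages and monocytes, which are not a known source of Col17a1 or Lamb3, served as a gauge of RNA set free from other cells. They held 7.36, 5.21, 41.7 and 1.51 CPM of Col17a1 and 0, 0.947, 1.81 and 0.502 CPM of Lamb3, where the control's 0 UMIs allow up to 4.53 CPM by the interval. Itga6 was higher in them, at 22.1, 33.2, 131 and 32.1 CPM, yet below the basal level in every library.

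Col17a1 and Lamb3 were mostly basal cell transcripts in every library, and Col4a1 and Col4a2 were transcripts of vessels, stroma and glia. Itga6, Itgb4, Lama5 and Col7a1 were shared between epithelium and other cells. Part of the Col17a1 UMIs lay in fibroblasts, as given at the end under other observations. Basal cells held 70.3%, 80.2%, 73.2% and 63.5% of all Col17a1 UMIs and 81.5%, 77.5%, 78.2% and 76.9% of all Lamb3 UMIs. For Itga6 their share was 43.4%, 61.4%, 56.7% and 19.4%. At day 14, when only 394 epithelial cells were captured, blood endothelial cells held 53.3% of Itga6 UMIs and fibroblasts 80.1% of Col7a1 UMIs. Such shares follow the number of cells captured as well as the RNA in each. Of Col4a1 UMIs blood endothelial cells held 24.6%, 33.7%, 66.4% and 46.1%, the largest share of any gated class except in the control, where fibroblasts held 33.4%.

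**Figure D1:**
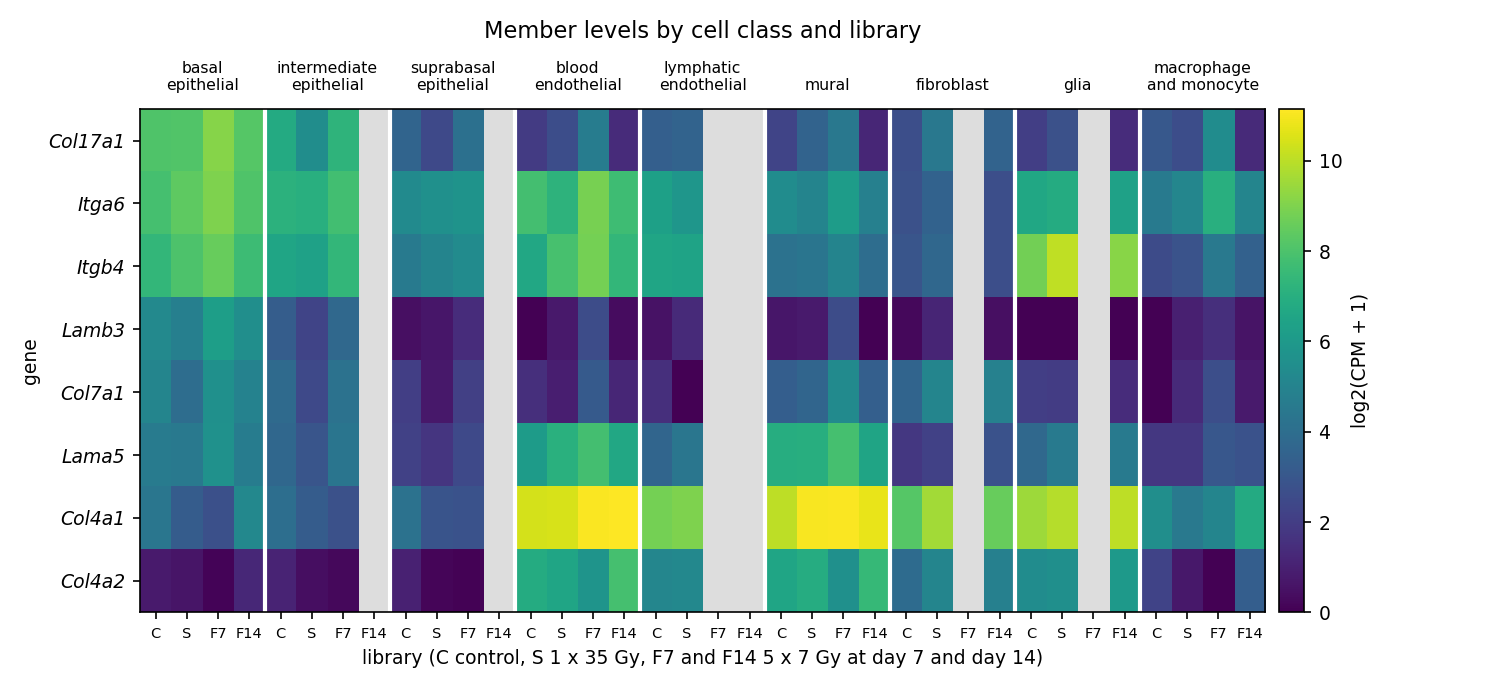
Levels of the 8 genes, as log2(CPM + 1), in 9 cell classes and 4 libraries. Grey marks classes of under 100 cells. Col17a1 and Lamb3 were brightest in basal epithelial cells, Col4a1 in blood endothelial and mural cells, and Itgb4 also in glia.

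Comparing the single dose and the fractions with the sham-treated control asks how the adhesion genes of basal cells stood after radiation. At day 7 after fractionated radiation the receptors took up a larger share of basal cell RNA than in the control. Col17a1 stood at 266, 280.1, 559 and 298 CPM. The fractionated day 7 library was the highest, with a log2 ratio to the control of 1.07 (1.02 to 1.13), while those of the single dose and day 14 were 0.08 (0.02 to 0.13) and 0.16 (0.06 to 0.26). Itga6, the laminin-binding partner of Itgb4, was at 229.6, 328, 510.3 and 268 CPM. It was higher than in the control in all 3 irradiated libraries, by log2 ratios of 0.51 (0.45 to 0.57), 1.15 (1.09 to 1.21) and 0.22 (0.12 to 0.33). Itgb4, whose long tail links to the keratin network, had the same order at 166, 262, 379.9 and 198 CPM. Its log2 ratios to the control were 0.66 (0.59 to 0.73), 1.20 (1.13 to 1.27) and 0.26 (0.13 to 0.38).

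The integrin pair kept close proportions in basal cells. There were 1.38 (1.31 to 1.46), 1.25 (1.21 to 1.29), 1.34 (1.30 to 1.39) and 1.35 (1.23 to 1.49) Itga6 UMIs per Itgb4 UMI, the lowest after the single dose.

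Among the ligands and anchors the single dose and the fractions parted. Lamb3, a chain of laminin-332, was at 36.8, 27.1, 74.5 and 45.0 CPM. It was lowest after the single dose, with a log2 ratio to the control of -0.44 (-0.61 to -0.28), and highest in the fractionated day 7 library, at 1.02 (0.86 to 1.17). Col7a1, the anchoring fibril collagen, stood at 32.5, 14.7, 48.0 and 29.3 CPM. The single-dose library was the low one, with a log2 ratio to the control of -1.14 (-1.34 to -0.95), whereas the fractionated day 7 library was above the control by 0.56 (0.39 to 0.73). In CPM the fractions exceeded the single dose at day 7 by a log2 ratio of 1.70 (1.53 to 1.88). Per cell, however, both libraries had close levels of Col7a1, 0.265 UMIs after the single dose and 0.267 UMIs after the fractions. Lama5, which adds to laminins of the mature membrane, was at 24.0, 21.9, 48.3 and 24.3 CPM. The control, single-dose and day 14 values overlapped within their intervals, and the fractionated day 7 value was higher by a log2 ratio of 1.01 (0.82 to 1.20) to the control.

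**Figure D2:**
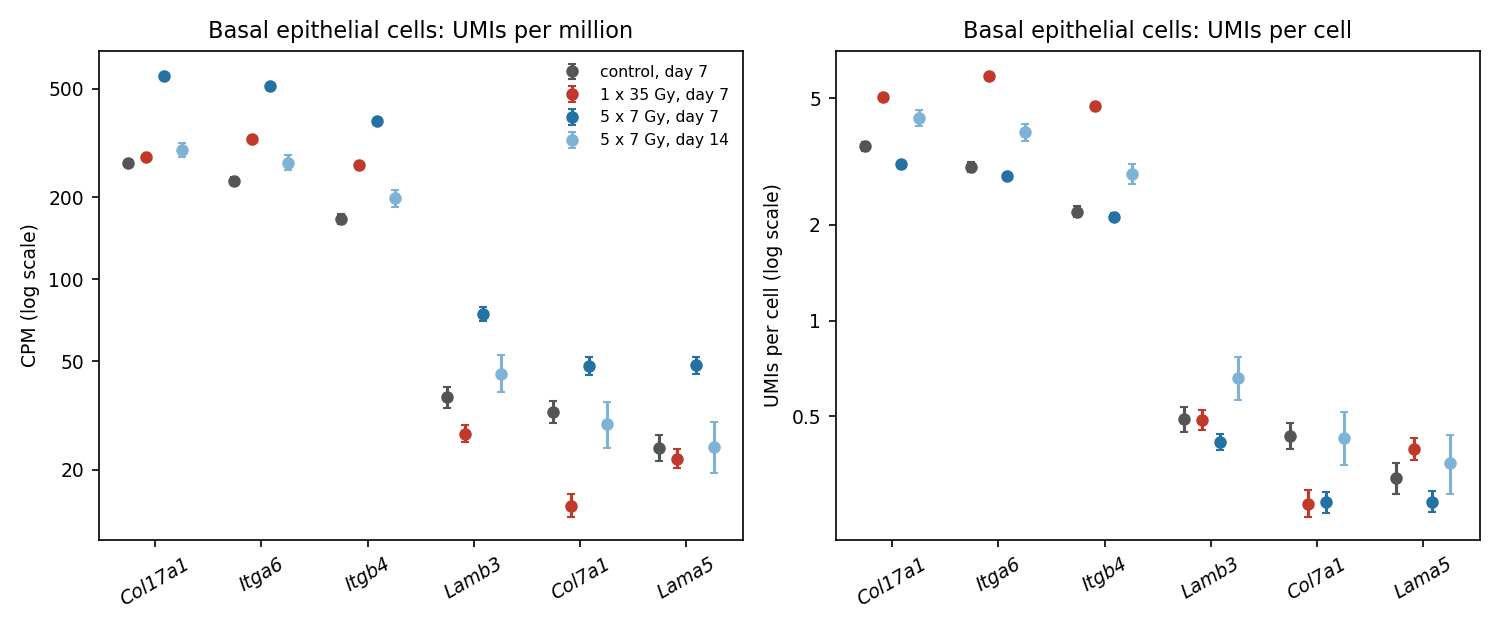
Levels of 6 genes in basal epithelial cells of the 4 libraries, as CPM (left) and as UMIs per cell (right), on log axes. Points are 1 library each and bars are exact Poisson 95% intervals. In CPM the 5 x 7 Gy day 7 library was the highest for each of the 6 genes, and in UMIs per cell it was below the control for each of them.

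Of the 5 comparisons in basal cells, fractionated day 7 against control was the one with the most members 2-fold apart. Here and below a gene counts as measured with at least 50 UMIs over both libraries, and as higher or lower from 2-fold. In fractionated day 7 against control, 5 of 7 measured genes were higher (Col17a1, Itga6, Itgb4, Lamb3 and Lama5) and 1, Col4a1, was lower, where 10.7% of 9856 genes were higher and 10.1% were lower. The median log2 ratio was 1.02 over the measured members and 0.06 over all genes. For the single dose against the control, none was higher and 2 were lower (Col7a1 and Col4a1), beside 8.19% and 8.09% of all genes. Day 14 against the control gave none in either direction, beside 2.48% and 2.78%. Fractionated against single dose at day 7 gave 3 higher (Lamb3, Col7a1 and Lama5) and none lower, beside 7.05% and 11.2%. In day 14 against day 7 of the fractions 1 gene, Col4a1, was higher and none was lower, beside 8.92% and 11.7%. Col17a1, Itga6, Itgb4 and Lama5 lay just short of 2-fold there, at -0.91, -0.93, -0.94 and -0.99. The first 3 of these comparisons share the control library. Col4a1, counted in several of them, was below the macrophage level in CPM in basal cells of every library, as given further below.

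The direction of the fractionated day 7 difference depended on the denominator. Counted per cell, basal cells held 3.53, 5.04, 3.12 and 4.35 UMIs of Col17a1. Per-cell Itga6 was 3.05, 5.89, 2.84 and 3.91 UMIs and per-cell Itgb4 2.20, 4.72, 2.12 and 2.89 UMIs. Lamb3 was 0.489, 0.487, 0.415 and 0.657, Col7a1 0.432, 0.265, 0.267 and 0.427 and Lama5 0.318, 0.394, 0.269 and 0.355 UMIs per cell. On this scale, for the receptors, the single-dose cells were the high ones and the fractionated day 7 cells were below the control. The log2 ratio per cell of fractionated day 7 to control was -0.18 for Col17a1, -0.06 for Itgb4 and -0.69 for Col7a1. Less RNA per cell and shallower capture or sequencing of these cells cannot be told apart. When only cells with 5000 or more UMIs were used, 1 of the 5 higher genes, Itgb4, remained at 2-fold, with log2 ratios of 1.00 for Itgb4, 0.84 for Itga6, 0.73 for Col17a1 and 0.08 for Col7a1.

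Cells thinned to a common 1000 UMIs gave the same order as CPM. A Col17a1 UMI was then found in 22.9%, 25.9%, 46.3% and 27.1% of basal cells, against 0.495%, 0.457%, 2.16% and 0.113% of macrophages and monocytes. Lamb3 was found in 3.22%, 3.03%, 8.97% and 5.67% of thinned basal cells. Without thinning the shares for Col17a1 were 92.2%, 94.0%, 90.4% and 92.7%, which no longer separate the libraries. Of the basal cells 1025, 1551, 2631 and 247 were deep enough to be thinned.

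Other measures moved with the libraries. The summed level of 11 immediate-early and heat shock genes in basal cells was 23884, 1981, 374 and 23039.7 CPM, low in both day 7 irradiated libraries. Their part in the levels of the adhesion genes was not tested. Cells with a Mki67 or Top2a UMI, a sign of cycling, made up 45.9%, 45.4%, 21.6% and 45.2% of basal cells at unequal depth. Without them the fractionated day 7 to control log2 ratio was 1.05 for Col17a1 and 1.24 for Itgb4, close to the values with them.

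Col17a1, Itga6, Itgb4, Lamb3, Col7a1 and Lama5 had lower levels in suprabasal than in basal cells of every library. After the single dose Col17a1 was low already in intermediate cells, which lie between both marker cuts. Its level there was 112, 43.1, 152 and 102 CPM, the last from 69 cells. The single-dose value was below the control by a log2 ratio of -1.38 (-1.51 to -1.25), although in basal cells the same libraries differed by only 0.08. Lamb3 and Col7a1 followed in intermediate cells, with ratios of -1.16 (-1.62 to -0.70) and -1.59 (-1.98 to -1.19). Per cell the 3 ratios kept their sign but were under 2-fold, at -0.74, -0.52 and -0.94. For Itga6 and Itgb4 the ratios in CPM were small, at -0.15 (-0.24 to -0.05) and -0.16 (-0.28 to -0.04). Per cell both integrins were instead above the control after the single dose. The 896 single-dose intermediate cells held 2964 Itga6 and 1875 Itgb4 UMIs, and the 535 of the control 1256 and 799.

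Cutting the cells more finely by their ratio of basal to suprabasal marker UMIs gave the same picture. The markers that set the bins also differed between libraries. In basal cells the 4 basal markers summed to 12343, 7418, 9971 and 13333.5 CPM. The 11 suprabasal markers there summed to 1227, 598, 818 and 865 CPM. Whether equal bins hold cells of an equal stage was not tested. In cells whose log2 ratio lay between 0 and 1, Col17a1 was 107 CPM in the control, 28.2 CPM after the single dose and 140.2 CPM at fractionated day 7. At log2 ratios of 4 or more the values were 251, 313, 676 and 304 CPM. The single-dose value was thus above the control at the basal end, and below it in each bin with a log2 ratio under 3. In CPM neither Col17a1 nor Lamb3 of suprabasal cells was above the macrophage level beyond counting error in any library. Suprabasal cells were deeper, with a median of 21593, 31070, 11072 and 5690 UMIs against 3577.5, 4865, 1921.5 and 4205 in macrophages and monocytes. Per cell they held more Col17a1 UMIs than macrophages and monocytes in each library, at day 14 from 77 cells. The reading for Col17a1 thus depended on the scale.

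**Figure D3:**
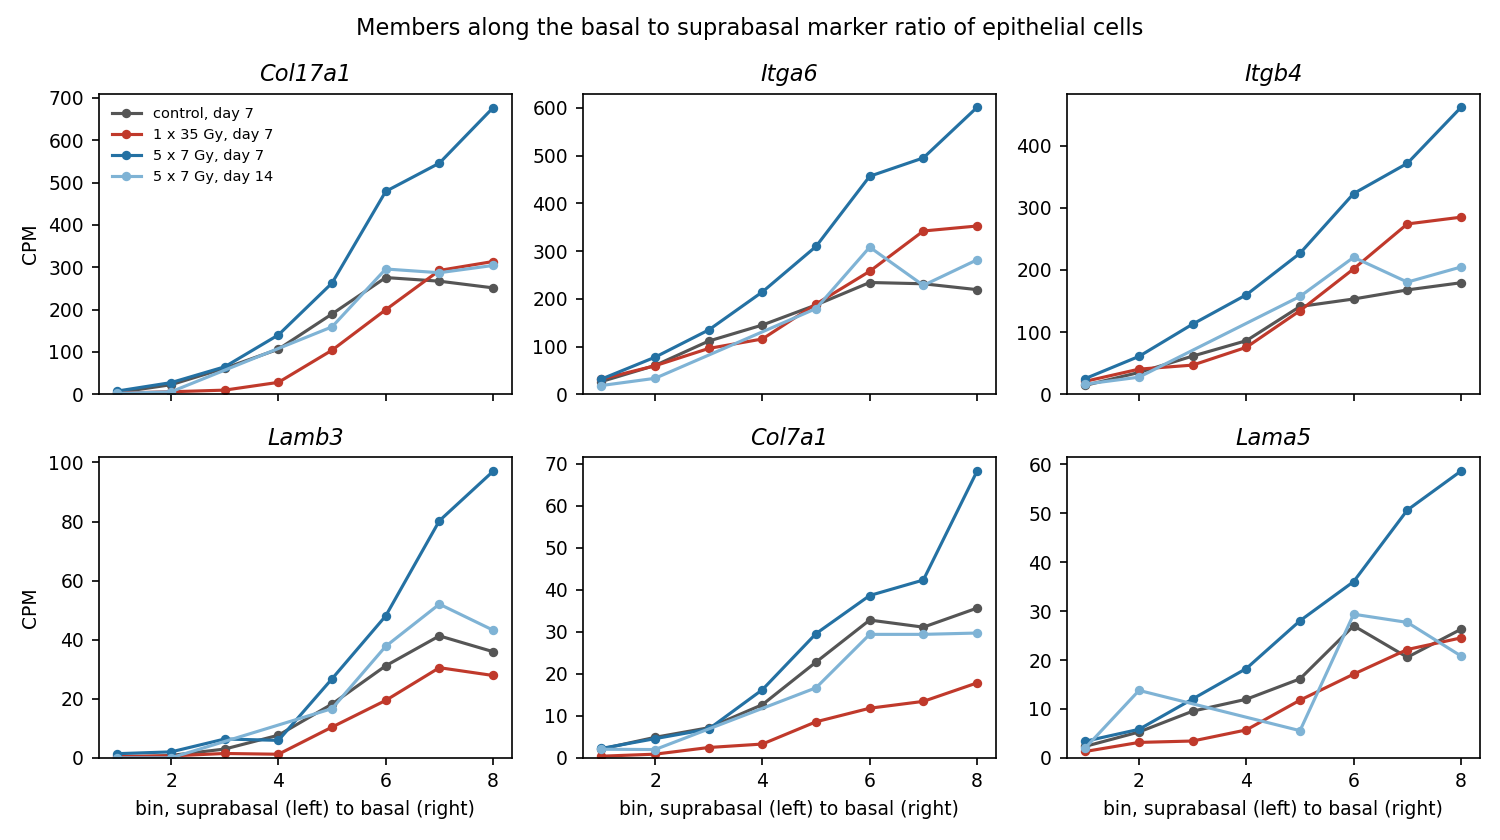
CPM of 6 genes in epithelial cells sorted into 8 bins by the log2 ratio of basal to suprabasal marker UMIs, from suprabasal (left) to basal (right); lines join the bins of 1 library, and bins under 20 cells are not drawn. Levels are higher in basal than in suprabasal bins, but in the control Col17a1, Itga6 and Lama5 do not rise further after bin 6. Lamb3 in the control falls from bin 7 to bin 8. From bin 5 on the 5 x 7 Gy day 7 library is the highest for each gene. To the left of that it is below the control for Lamb3 in bin 4 and for Col7a1 in bins 2 and 3. The 1 x 35 Gy line of Col17a1 lies below the control line in bins 1 to 6.

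Type IV collagen was low in basal cells, and whether it stood above the macrophage level depended on the scale. Col4a1 was at 19.6, 8.47, 5.68 and 35.6 CPM there against 44.2, 21.9, 32.6 and 109.9 CPM in macrophages and monocytes. Col4a2 had 10, 15, 1 and 5 UMIs in all basal cells of a library. In CPM basal Col4a1 was below the macrophage value in every library. Per cell basal cells held 0.261, 0.152, 0.0317 and 0.520 Col4a1 UMIs and macrophages and monocytes, which are shallower, 0.178, 0.114, 0.0677 and 0.480. The part of free RNA in the basal differences of Col4a1 was not tested. Fibroblast markers, another stromal signal, summed to 742, 77.8, 26.5 and 493 CPM in the same basal cells.

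In blood endothelial cells Itgb4 and Lama5 were higher in all 3 irradiated libraries, and in CPM the integrin partner Itga6 only at fractionated day 7. Itgb4 was at 102, 236, 451 and 165 CPM, above the control in all 3 irradiated libraries and highest at fractionated day 7. The log2 ratios to the control were 1.21 (1.04 to 1.37), 2.14 (1.98 to 2.31) and 0.69 (0.54 to 0.84). Per cell the order changed but every irradiated library stayed above the control, at 0.397, 1.44, 1.14 and 1.01 UMIs. Itga6 was at 225, 144, 457 and 204 CPM, lower than the control after the single dose at -0.64 (-0.79 to -0.49) and higher at fractionated day 7 at 1.02 (0.90 to 1.15). Its day 14 ratio was -0.14 (-0.25 to -0.04), and its level per cell 0.875, 0.879, 1.15 and 1.25 UMIs. The pair thus changed proportions: there were 2.20 (1.97 to 2.47), 0.612 (0.552 to 0.677), 1.01 (0.933 to 1.10) and 1.23 (1.17 to 1.31) Itga6 UMIs per Itgb4 UMI. Lama5, whose laminin lines mature vessels, was at 67.9, 135, 223 and 103 CPM. Its log2 ratios were 0.99 (0.78 to 1.20), 1.72 (1.51 to 1.92) and 0.60 (0.42 to 0.79), each above the control.

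**Figure D4:**
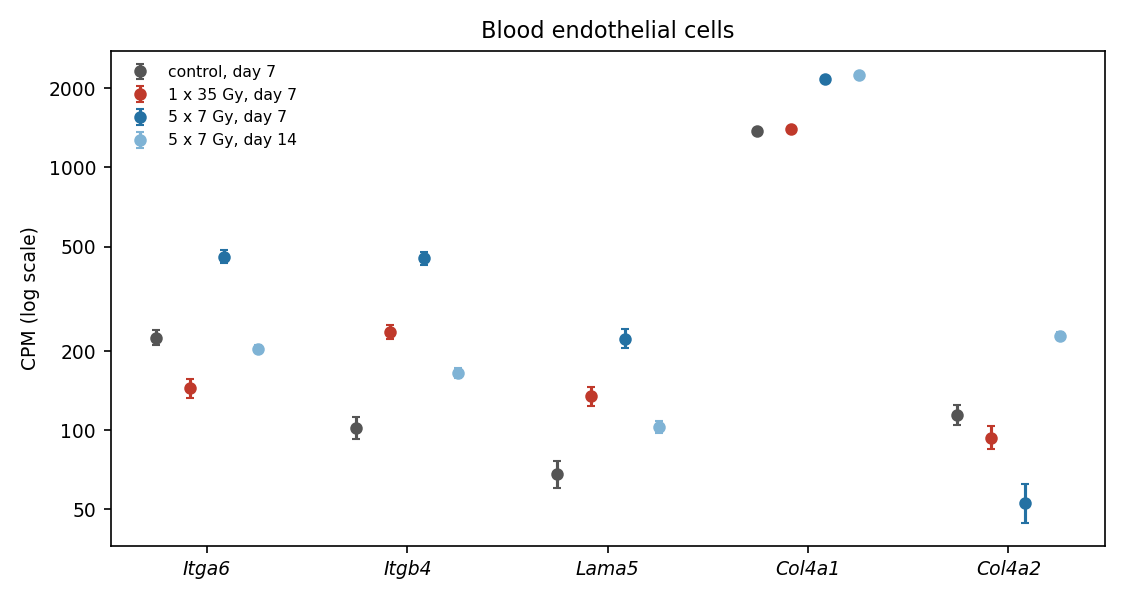
Levels of 5 genes in blood endothelial cells, in CPM on a log axis. Points are 1 library each and bars exact Poisson 95% intervals. Itgb4 and Lama5 were lowest in the control, and Col4a2 was lowest where Itga6, Itgb4 and Lama5 were highest, in the 5 x 7 Gy day 7 library.

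Beside all genes, 4 of 6 measured members were higher and 1, Col4a2, was lower in endothelial cells at fractionated day 7 against control, where 10.6% of 8220 genes were higher and 9.27% lower. Among those 4 was Col17a1, at 24.99 CPM, which is below the macrophage level of 41.7 CPM. For the single dose 1 of 5 was higher, Itgb4, and none lower, beside 6.62% and 10.6%. Day 14 against control gave 1 higher of 5, Col4a2, at a log2 ratio of 1.00 (0.86 to 1.14), and none lower, beside 3.98% and 3.55%. Fractionated against single dose at day 7 gave 2 higher of 6, Itga6 and Col17a1, and none lower, beside 10.3% and 7.65%. In day 14 against day 7 of the fractions 1 of 6 was higher, Col4a2, and 4 were lower, Col17a1, Itga6, Itgb4 and Lama5, beside 11.6% and 10.3%.

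Epithelial RNA in these cells was measured as well. The 12 epithelial markers summed to 588, 746, 1423 and 152 CPM in blood endothelial cells, highest at fractionated day 7. In that library the endothelial cells held 1155 Itgb4 UMIs and 64 Col17a1 UMIs, whereas basal cells held 5686 and 8368. The part of epithelial RNA in the endothelial Itgb4 level was not tested. The 9 blood endothelial markers summed to 5604, 5862, 6959.7 and 5014 CPM, and neutrophil markers to 11.2, 1525, 49.6 and 13.1 CPM, highest after the single dose. The part of neutrophil RNA in these levels was not tested.

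Col4a1 and Col4a2, which share the stretch of sequence shown above, parted most at fractionated day 7. In blood endothelial cells Col4a1 was at 1383, 1396, 2172 and 2259.6 CPM and Col4a2 at 114, 93.6, 52.7 and 228 CPM. In CPM Col4a1 was highest in both fractionated libraries, and Col4a2 was lowest in the first of them and highest in the second. Per cell there were 5.38, 8.52, 5.49 and 13.8 Col4a1 UMIs, so that fractionated day 7 was close to the control and below the single dose, and 0.444, 0.571, 0.133 and 1.40 Col4a2 UMIs, again lowest at fractionated day 7. The log2 ratio of fractionated day 7 to control was 0.65 (0.60 to 0.70) for Col4a1 and -1.11 (-1.40 to -0.84) for Col4a2. UMIs of different genes are captured with different efficiency, so only the change of their ratio is read. Endothelial cells held 12.1 (11.1 to 13.3), 14.9 (13.5 to 16.5), 41.2 (34.7 to 49.2) and 9.91 (9.54 to 10.3) Col4a1 UMIs per Col4a2 UMI. The fractionated day 7 interval did not overlap that of any other library. To a smaller extent the single-dose interval lay above that of the control, and the day 14 interval below it. Over the alternative settings that gave a value its ratio ranged from 40.9 to 48.7.

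Mural cells, the smooth muscle and pericytes around vessels, had the same split. Col4a1 in them was at 1039, 2109, 2132 and 1745 CPM and Col4a2 at 92.2, 118, 47.4 and 176 CPM. All 3 irradiated libraries were above the control for Col4a1, with log2 ratios of 1.02 (0.96 to 1.08), 1.04 (0.95 to 1.12) and 0.75 (0.69 to 0.80). Per cell the levels were 4.49, 13.6, 4.54 and 10.6 UMIs, and the log2 ratio of fractionated day 7 to control was 0.02. For Col4a2 the fractionated day 7 value rested on 38 UMIs, at -0.96 (-1.49 to -0.47). Per Col4a2 UMI there were 11.3 (10.0 to 12.7), 17.8, 44.9 (32.6 to 63.7) and 9.90 (9.33 to 10.5) Col4a1 UMIs, and the fractionated day 7 interval lay above that of each other library. Fibroblasts, which could be compared in 3 libraries, held 21.3 (19.2 to 23.7), 23.9 (19.7 to 29.4) and 13.2 (12.4 to 14.0) in the control, single-dose and day 14 libraries. Lama5 in mural cells was at 122, 125, 231 and 90.7 CPM, with a log2 ratio of 0.92 (0.66 to 1.18) at fractionated day 7 against the control, which turned to -0.10 per cell.

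**Figure D5:**
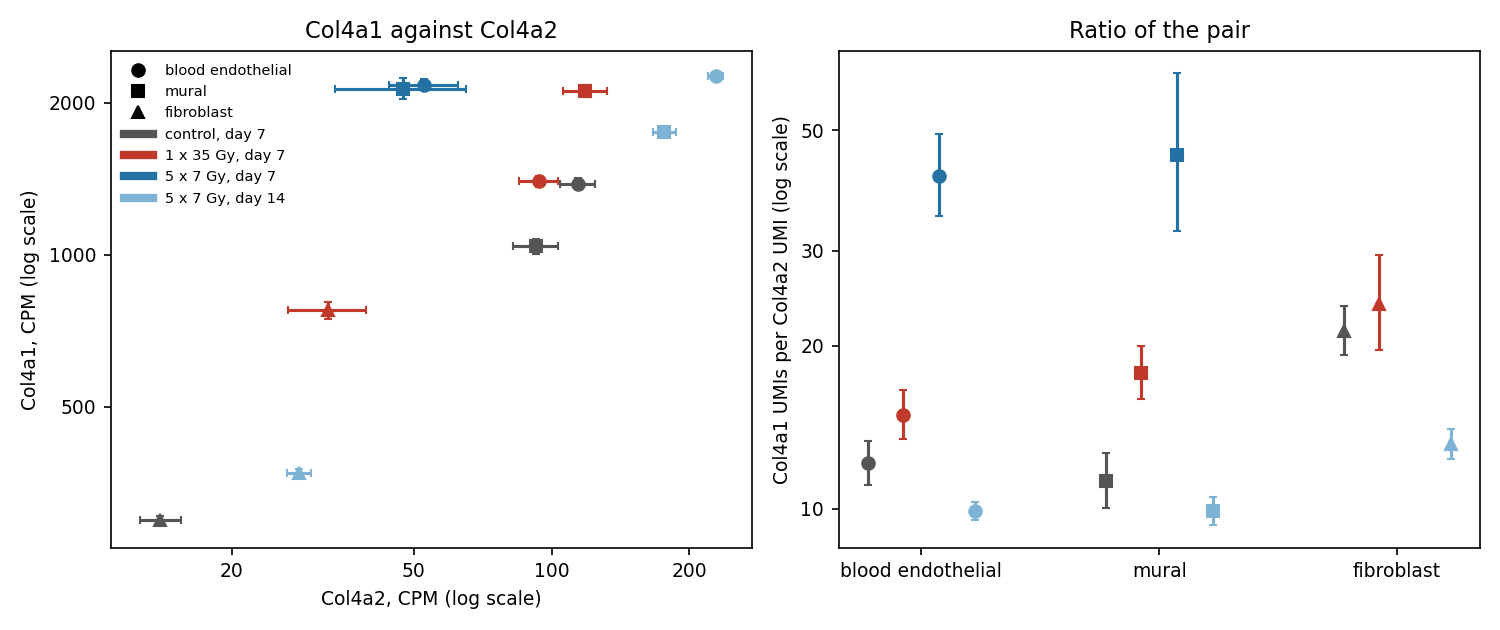
Left, Col4a1 against Col4a2 in CPM on log axes for blood endothelial cells, mural cells and fibroblasts; right, Col4a1 UMIs per Col4a2 UMI on a log axis. Bars are 95% intervals. The 5 x 7 Gy day 7 points, of endothelial and mural cells, lie to the left and have the highest ratios; fibroblasts of that library were under 100 cells and are not drawn.

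Fibroblasts were another source of Col7a1, and there it was higher after radiation. Col7a1 was at 10.9, 33.1 and 29.1 CPM in control, single-dose and day 14 fibroblasts, with log2 ratios to the control of 1.60 (1.27 to 1.93) and 1.42 (1.23 to 1.61). The 74 fibroblasts of fractionated day 7 held 21 Col7a1 UMIs, 89.9 CPM (55.6 to 137). In the single-dose library Col7a1 was thus lower than the control in basal cells and higher in fibroblasts. Col4a1 in fibroblasts was 298, 777 and 369.6 CPM, with ratios of 1.38 (1.32 to 1.45) and 0.31 (0.27 to 0.35). Col4a2 was 14.0, 32.4 and 28.1 CPM, with ratios of 1.21 (0.89 to 1.53) and 1.01 (0.83 to 1.18). The single-dose fibroblasts were 475 cells against 3850 in the control.

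Glia, the Schwann-like cells of nerves, carried the highest Itgb4 level of any class in the 3 libraries where they were compared. Itgb4, there a receptor of the glial basement membrane, was at 436, 1085 and 576 CPM in control, single-dose and day 14 glia. The log2 ratios were 1.32 (1.12 to 1.51) and 0.40 (0.26 to 0.55), the first from 122 cells. Itga6 in the same glia, with intervals that overlap, was at 98.1, 113 and 83.1 CPM. Type IV collagen was found there too, with 929, 328 and 2473 Col4a1 UMIs and 52, 16 and 154 Col4a2 UMIs. In CPM both collagens were higher in glia than in fibroblasts of the same library. Per cell, glial Col4a1 was below the fibroblast level after the single dose. Lymphatic endothelial cells, compared only for the single dose, had Itgb4 at 92.7 and 87.1 CPM, a ratio of -0.09 (-0.54 to 0.34) whose interval includes 0.

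Among the partners of the hemidesmosome, the plakins Dst and Plec and the anchoring protein Lad1 lay within 2-fold of the control in basal cells of each irradiated library. Dst, which links the complex to keratin, was at 134, 106, 171 and 144 CPM, lowest after the single dose. Plec, the other plakin, was at 162, 133, 188 and 155 CPM, also lowest in that library and, like Dst, highest at fractionated day 7. Lad1 was at 125, 163, 213 and 119.9 CPM and highest at fractionated day 7, with a log2 ratio to the control of 0.77 (0.69 to 0.86). Basal cells had a mean of 13286.5 UMIs in the control and 5573.61 at fractionated day 7. Per cell Dst, Plec and Lad1 were thus below the control in that library.

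Of all genes in basal cells, 8.19% were higher and 8.09% lower after the single dose, and 10.7% and 10.1% at fractionated day 7. The median log2 ratios over all genes were 0.18 and 0.06. These values stand beside the list counts and medians that follow. Among 15 other matrix receptors 12 were measured in both day 7 comparisons with the control. After the single dose 2 were higher and 2 lower, and at fractionated day 7 2 were higher and 1 lower, namely Itga3 and Itgb8 above in both, Sdc4 below in both and Itga2 below after the single dose, with medians of -0.38 and -0.09. Itga3, another laminin-332 receptor chain, was at 21.3, 47.0, 54.2 and 29.0 CPM, and the syndecan Sdc4 at 229, 85.6, 93.8 and 143 CPM. Itgb1, the partner of Itga3, was at 224, 235, 178 and 200.5 CPM. Of 12 integrin adaptors 11 and 12 were measured; 0 and 1 were higher and 2 and 1 lower (Parvb above at fractionated day 7, Fermt2 below in both and Vcl below after the single dose). Vinculin (Vcl), which couples integrins to actin, was at 143, 60.3, 73.8 and 82.6 CPM.

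The all-gene shares and medians just given also stand beside the next lists. Of 7 other laminin chains 3 were measured in both day 7 comparisons, 1 lower after the single dose and none 2-fold apart at fractionated day 7. The lower one, Lamb2, was at 21.0, 10.2, 21.2 and 22.9 CPM. In the list of 21 other basement membrane genes 8 were measured. None was higher and 4 were lower after the single dose (Col4a5, Col15a1, Nid1 and Sparc), and 1 was higher (Col18a1) and 3 lower (Col15a1, Nid1 and Sparc) at fractionated day 7, with medians of -1.10 and 0.02. Sparc, a collagen-binding matrix protein, was at 346, 48.6, 56.1 and 179.5 CPM and nidogen-1 (Nid1) at 9.31, 1.32, 0.401 and 7.46 CPM; fibroblast markers in these basal cells moved with them, as given above, and their part was not tested. Agrn, a heparan sulfate proteoglycan, was at 42.9, 57.9, 85.7 and 45.0 CPM and Col18a1 at 40.1, 43.4, 82.7 and 48.9 CPM. Both were highest at fractionated day 7 in CPM but below the control there per cell. Among 12 collagen maturation genes 11 were measured, none higher and 1, Plod2, lower in each day 7 comparison with the control, with medians of 0.12 and -0.22. Serpinh1, the collagen chaperone, was at 97.7, 109, 83.0 and 99.7 CPM. At day 14 no gene of these lists was 2-fold higher than the control in basal cells and 1, Col4a5, was lower, beside 2.48% and 2.78% of all genes.

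Across the 28 sums of a cell class in a library with at least 100 cells, the levels of 3 pairs of members followed each other most closely. Pearson's r of log2(CPM + 10) was 0.94 between Col17a1 and Lamb3, 0.94 between Col4a1 and Col4a2 and 0.78 between Itga6 and Itgb4. Lama5 followed with 0.72 to Col4a2 and 0.70 to Col4a1, and the highest value of Col7a1 was 0.49, to Col17a1. The points share libraries, so these values are descriptions. Among genes with at least 500 UMIs, the 3 most alike were Serpinb10, AC141969.1 and Plek2 for Col17a1 (r from 0.94 to 0.95) and Gsta3, Plek2 and AABR07043711.1 for Lamb3 (r from 0.94 to 0.96). For the receptors they were Tbc1d2, Notch1 and Epb41l4a for Itga6 (r from 0.81 to 0.82) and Itpr3, Arhgef28 and Tmem117 for Itgb4 (r from 0.85 to 0.92). The collagens had Pdlim2, Apcdd1 and Snai2 for Col7a1 (r from 0.79 to 0.81), Igfbp7, Ppp1r2 and Jam3 for Col4a1 (r from 0.94 to 0.97) and Col4a1, Akap2 and Ppp1r2 for Col4a2 (r from 0.92 to 0.94). Lama5 had Tinagl1, Actn4 and Bcam (r from 0.90 to 0.94). The names depended on the value added to CPM. With 1 in place of 10, Col17a1 had Krt5, Pitx1 and Tmprss13, none of them named for it above. Lamb3 then had Fermt1, Gsta3 and AC141969.1, of which only Gsta3 was named for it above. The other members kept most or all of their genes.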

How the data were processed

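For each library the authors deposited raw UMI counts as a matrix of 32623 features, not normalized, per the file headers. Per the labels' protocols, tissue was stored cold and shipped, digested with collagenase I, DNase I and trypsin-EDTA, strained and depleted of dead cells, and libraries used the 10x Chromium 3' v3.1 kit. Reads were processed with Cell Ranger 5.0.0, with mRatBN7.2 and rn7 as builds, per the submitters' processing notes; which annotation was used is not stated there. Cells needed 200 or more genes, 500 or more UMIs and a mitochondrial share of UMIs no higher than 20%. Doublets called by Scrublet in scanpy 1.11.5 were left out (2.28% to 3.98% of cells per library, under the 7.26% to 9.45% expected, so some may remain). Of all barcodes 3.71% to 16.6% exceeded the mitochondrial limit, most in both day 7 irradiated libraries, and library pairs shared 26 to 38 barcodes.

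Each cell took the class with the highest mean z-score of its markers, at a margin of 0.25 over the next class and with at least 3 markers detected; 88.6% of 39366 cells were gated, and 9.33% to 10.5% of epithelial cells lay within 0.5 log2 units of the basal cut. This scoring rule was set after the data were seen. Counts were summed per library and class. CPM have exact Poisson intervals, ratios exact conditional binomial intervals and shares exact Clopper-Pearson intervals. PCR duplicates are removed by UMIs, yet intervals cover counting error only. Every member is named. From each list up to 4 genes per comparison in epithelial cells were named, those with the largest ratio by the interval bound nearest to 1, and the 3 genes most alike to a member; Itga2 was named for a small count after its values were seen. Alternatives, of which UMIs per cell, other basal cuts and the cells without cycling markers were added after seeing the data, changed the mitochondrial limit, doublets, gate margin, class method, scaling, cell weight, depth and basal cut. Another alternative changed the value added to CPM before the genes most alike were ranked. The ratios and calls were checked on simulated data. A listed gene, and the counts over its list, are not reported here. The members and lists were chosen with earlier results of these data known. Sequences are from RefSeq tables of GRCr8; no coordinates were taken from the count data.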

Additional observations from a re-analysis of the deposited data

Results flagged for a closer look

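In the comparison of the single dose with the control, Col7a1 was 2-fold or more lower in basal epithelial cells and 2-fold or more higher in fibroblasts. Its log2 ratio was -1.14 in basal cells, from 412 and 444 UMIs, and 1.60 in fibroblasts, from 106 and 293 UMIs. Per cell the log2 ratios were -0.71 and 1.55, so the basal difference was then under 2-fold. The opposite directions in both cell types drew attention to it. With 1 library per group the difference between the cell types was not tested.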

How the results depend on the processing

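Signs were stable under the planned settings: of the ratios of 2-fold or more, 79 of 79 kept their sign when cells were classed by cluster, as did 47 of 47 with deep cells only. With UMIs per cell, 60 of 79 did. This last setting, both basal cuts and the cells without Mki67 or Top2a UMIs were chosen after seeing the data. Counts depend on where a ratio lies around 2-fold, and the cause of each change was not tested.

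In basal cells, single dose against control, members higher went from 0 to 1 per cell. Members lower went from 2 to 1 by cluster, with equal cell weights, with the cut at 3 and without cycling cells, and to 0 per cell. Fractionated day 7 against control gave 3 in place of 5 higher with median of ratios scaling, 2 with the cut at 1, 1 with cells of 5000 or more UMIs and 0 per cell. Day 14 against control gave 1 higher in place of 0 with equal weights, the cut at 3 and no cycling cells. Fractionated against single dose gave 0 higher in place of 3 and 3 lower in place of 0 per cell. Day 14 against day 7 gave, in place of 0 lower, 1 by cluster, with the cut at 1 and without cycling cells, 3 with the cut at 3, 4 with the wider gate margin and 5 with equal weights.

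In blood endothelial cells, single dose against control gave 2 higher in place of 1 with doublets kept, the wider margin, equal weights and per cell, and 0 with deep cells. Day 14 against control gave 0 higher in place of 1 with the mitochondrial limit at 10%, doublets kept, the wider margin and median of ratios scaling, and 4 per cell. Fractionated against single dose gave 1 higher in place of 2 with a minimum of 100 UMIs and per cell, and 1 lower in place of 0 with equal weights and per cell. Day 14 against day 7 gave 2 higher in place of 1 and 1 lower in place of 4 per cell. The control's Col4a1 per Col4a2 was 13.5 with deep cells.

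Per cell, these log2 ratios of 2-fold or more changed sign. Fractionated day 7 against control became -0.039 for Itgb4 in all epithelial cells, and in basal cells -0.18 for Col17a1, -0.10 for Itga6, -0.057 for Itgb4, -0.24 for Lamb3 and -0.24 for Lama5. Fractionated against single dose became -0.41 for Lamb3 and -0.091 for Col7a1 in all epithelial cells, -0.23 for Lamb3 and -0.55 for Lama5 in basal cells, -0.75 for Itgb4, -0.074 for Lamb3 and -0.24 for Lama5 in intermediate cells, and -0.45 for Itga6 in mural cells. Day 14 against day 7 became 0.11 for Itga6 and 0.16 for Lama5 in endothelial cells, and 0.20 for Itga6, 0.43 for Itgb4 and 0.16 for Lama5 in mural cells. No paired analysis was possible because each group was 1 pooled library.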

Other observations

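Col17a1 was also counted in fibroblasts. Its level there was 5.43, 20.9 and 10.6 CPM in the control, single-dose and day 14 libraries, and at day 14 fibroblasts held 23.0% of all Col17a1 UMIs. Macrophages and monocytes of the same libraries had 7.36, 5.21 and 1.51 CPM.

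The list of other basement membrane genes was mixed in blood endothelial cells. Against the control, 2 were higher and 4 lower of 11 measured after the single dose (median log2 ratio -0.30), beside 6.62% and 10.6% of all genes. At fractionated day 7 3 were higher and 1 lower of 9 (median 0.55), beside 10.6% and 9.27%. Day 14 gave 3 higher and 2 lower of 13 (median 0.05), beside 3.98% and 3.55%. Col18a1 and Col15a1, chosen after their values were seen, were 2-fold or more higher in both day 7 irradiated libraries. Col18a1, the source of endostatin, was at 88.0, 565, 647 and 231 CPM, with log2 ratios to the control of 2.68 (2.53 to 2.84), 2.88 (2.71 to 3.04) and 1.39 (1.23 to 1.55). Col15a1, a related collagen of vessel membranes, was at 267, 739, 877 and 308 CPM, with ratios of 1.47 (1.37 to 1.57), 1.72 (1.61 to 1.82) and 0.21 (0.11 to 0.30). Sparc was at 5638, 3275, 3249.7 and 5846 CPM, lower in both day 7 irradiated libraries.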
